A study of Mus musculus with 18 samples.

Results

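The genes of the epithelial-mesenchymal transition (EMT) and of cell adhesion were followed in mouse liver tumours with and without miR-181ab1. There were 10 of them, Cdh1, Cdh2, Cldn1, Vim, Snai1, Snai2, Twist1, Zeb1, Zeb2 and Foxp2, chosen by symbol from the 54838 genes measured, and each symbol matched 1 gene. RNA was sequenced from 18 C57BL/6 mouse livers or liver tumours, in 6 groups of 3, and every sample was labelled with an age of 36 weeks. WT mice were wild type, and GKO mice lacked the miR-181ab1 locus in all tissues, so that no single liver cell type was targeted. WT normal and GKO normal livers came from untreated mice. WT and GKO non-tumour livers and tumours came from mice given the liver carcinogen diethylnitrosamine (DEN) once, by injection of 25 mg/kg at postnatal day 12, and by the study's methods the treated mice were males. No label tied a tumour to the non-tumour liver of the same mouse, so the p-values measure only the spread between these samples.

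In EMT an epithelial cell gives up its junctions with its neighbours and takes on the shape and motility of a mesenchymal cell. The transcription factors Snail (Snai1), Slug (Snai2), Twist1, Zeb1 and Zeb2 are its classical drivers, and they bind E-box motifs and repress genes such as Cdh1. E-cadherin (Cdh1) joins epithelial cells at adherens junctions and claudin-1 (Cldn1) seals tight junctions, whereas N-cadherin (Cdh2) and the intermediate filament vimentin (Vim) are the usual mesenchymal markers in carcinomas. Hepatocytes are unusual epithelial cells in that they carry both E- and N-cadherin, and E-cadherin is highest around the portal veins. Foxp2, a forkhead transcriptional repressor, is no classical EMT gene and was followed here beside them, since the study stained its protein in liver tumours. The question here is how the messenger RNAs of these genes stood in each tissue and genotype.

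The sequences bear on what was deleted and on where these factors could bind. The knockout removed the 2 miRNA genes of the locus, whose mature miRNAs are shown with the seed, bases 2 to 8, in capitals. Other miR-181 genes, such as Mir181a-2 and Mir181b-2, were not deleted. By the study this locus gives most of the mature miR-181 in human liver cancer, so GKO tissue may still hold miR-181. They lie on chromosome 1 (GRCm38.p6, plus strand), at chr1:137966468-137966490 for miR-181a and chr1:137966650-137966673 for miR-181b, and have the same seed.
mmu-miR-181a-5p: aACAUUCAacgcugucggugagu
mmu-miR-181b-5p: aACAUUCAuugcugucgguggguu
The word TGAATGT, which pairs with this seed, was looked for on the transcript strand in the longest annotated 3′ UTR of each gene (GENCODE mouse release 21). It was found in 1 of the 10 genes, Zeb2, against 17.5% of the 11573 genes with a 3′ UTR and a mean over all samples of at least 0.5 TPM, a measure of transcript abundance scaled to gene length and to the same total in each library. The Zeb2 match stood at base 2050 of a 3′ UTR of 4941 bases and was an 8mer, the seed match followed by an A. It is shown in capitals with the bases around it (mm10, chr2:44986505-44986534, minus strand).
Zeb2 3′ UTR site: tagtcagtataTGAATGTAttcataggttt
The other 9 genes, which included Cdh1, Vim, Cldn1 and Foxp2, had no such word in that window.

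RefSeq promoter windows (GRCm38.p6, from 250 bases before to 50 bases after the start) were matched for 5 of the 10 genes, Cldn1, Snai1, Vim, Twist1 and Zeb2. They were searched for the E-box CANNTG, a palindrome that reads the same on both strands, and for its form CAGGTG, which is CACCTG on the other strand and is the core that Snail, Slug and Zeb proteins prefer. Of 27025 promoters, 72.2% held an E-box and 20.0% held CAGGTG or CACCTG. The first window listed for each gene held an E-box in Cldn1 and Snai1 and none in Vim, Twist1 and Zeb2. Cldn1 and Vim are shown because their levels went in opposite directions between GKO and WT tumours, and Snai1 because it held CACCTG, at -126 from the start. The E-boxes are in capitals, and those of Cldn1 were CAAGTG at -207 and CAGATG at -155.
Cldn1 promoter, chr16:26371790-26372089, minus strand: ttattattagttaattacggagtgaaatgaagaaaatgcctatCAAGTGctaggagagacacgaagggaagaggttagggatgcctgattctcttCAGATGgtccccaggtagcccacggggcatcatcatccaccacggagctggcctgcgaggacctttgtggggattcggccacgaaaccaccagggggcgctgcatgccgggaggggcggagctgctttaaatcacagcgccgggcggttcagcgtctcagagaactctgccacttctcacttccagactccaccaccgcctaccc
Snai1 promoter, chr2:167537945-167538244, plus strand: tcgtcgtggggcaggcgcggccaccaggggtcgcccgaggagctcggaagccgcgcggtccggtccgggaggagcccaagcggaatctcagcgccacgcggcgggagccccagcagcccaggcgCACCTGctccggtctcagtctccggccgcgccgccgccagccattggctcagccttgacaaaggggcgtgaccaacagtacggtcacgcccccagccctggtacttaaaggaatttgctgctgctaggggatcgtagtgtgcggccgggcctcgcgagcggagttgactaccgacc
Vim promoter, chr2:13574061-13574360, plus strand: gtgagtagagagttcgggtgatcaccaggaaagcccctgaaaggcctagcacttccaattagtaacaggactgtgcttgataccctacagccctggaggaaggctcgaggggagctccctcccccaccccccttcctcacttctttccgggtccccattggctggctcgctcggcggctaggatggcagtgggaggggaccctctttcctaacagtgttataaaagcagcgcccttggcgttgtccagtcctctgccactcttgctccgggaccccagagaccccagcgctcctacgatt

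Levels are given in TPM, so that levels of different genes can be compared. The 18 libraries held 11921825 to 20745854 reads on genes, with a median of 16969375. The miR-181 precursors do not check the genotype in these libraries: Mir181b-1 was at 0 in all 18 libraries and Mir181a-1 had 1 read in 1 library, labelled GKO tumour 3. Hepatocyte markers summed to 74430 to 102400 TPM in livers without tumour and to 178800 to 214700 TPM in tumours, so hepatocyte RNA was present in every library. The library labelled WT non-tumour 2 stood apart from its group, with Cdh1, Cldn1 and Foxp2 at or near the values of tumours, and its correlation with the other WT non-tumours over genes was 0.929 and 0.933. Results that rest on it are given with and without it. Of the tumours, WT tumours 1 and 2 were the most alike, with a correlation over genes of 0.982. Their correlations with WT tumour 3 were 0.919 and 0.921. No label says whether WT tumours 1 and 2 came from different mice. Fits without WT tumour 3 leave only this pair in the group and may understate the spread between WT tumours.

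Over all 18 libraries 4 genes were abundant, with mean levels of 24.4 TPM for Cldn1, 16.9 TPM for both Cdh1 and Cdh2, and 16.8 TPM for Vim. By position (mm10), Cdh1 spans chr8:106603351-106670246, Cldn1 chr16:26356642-26371841, Vim chr2:13573927-13582826, Snai1 chr2:167538195-167542814, Snai2 chr16:14705852-14709385, Twist1 chr12:33957671-33959829, Zeb2 chr2:44983632-45117395 and Foxp2 chr6:14901349-15441977, and all 10 genes are annotated as protein-coding. The transcription factors were low, from a mean of 2.18 TPM for Snai2 to 0.452 TPM for Foxp2. Read numbers per library were small for Snai1 (4 to 53), Snai2 (14 to 64) and Twist1 (0 to 24). They were larger for Zeb1 (91 to 233) and Zeb2 (38 to 165), and ran from 0 to 147 for Foxp2. A change of the size of the replicate spread of these genes could not be resolved.

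**Figure D1:**
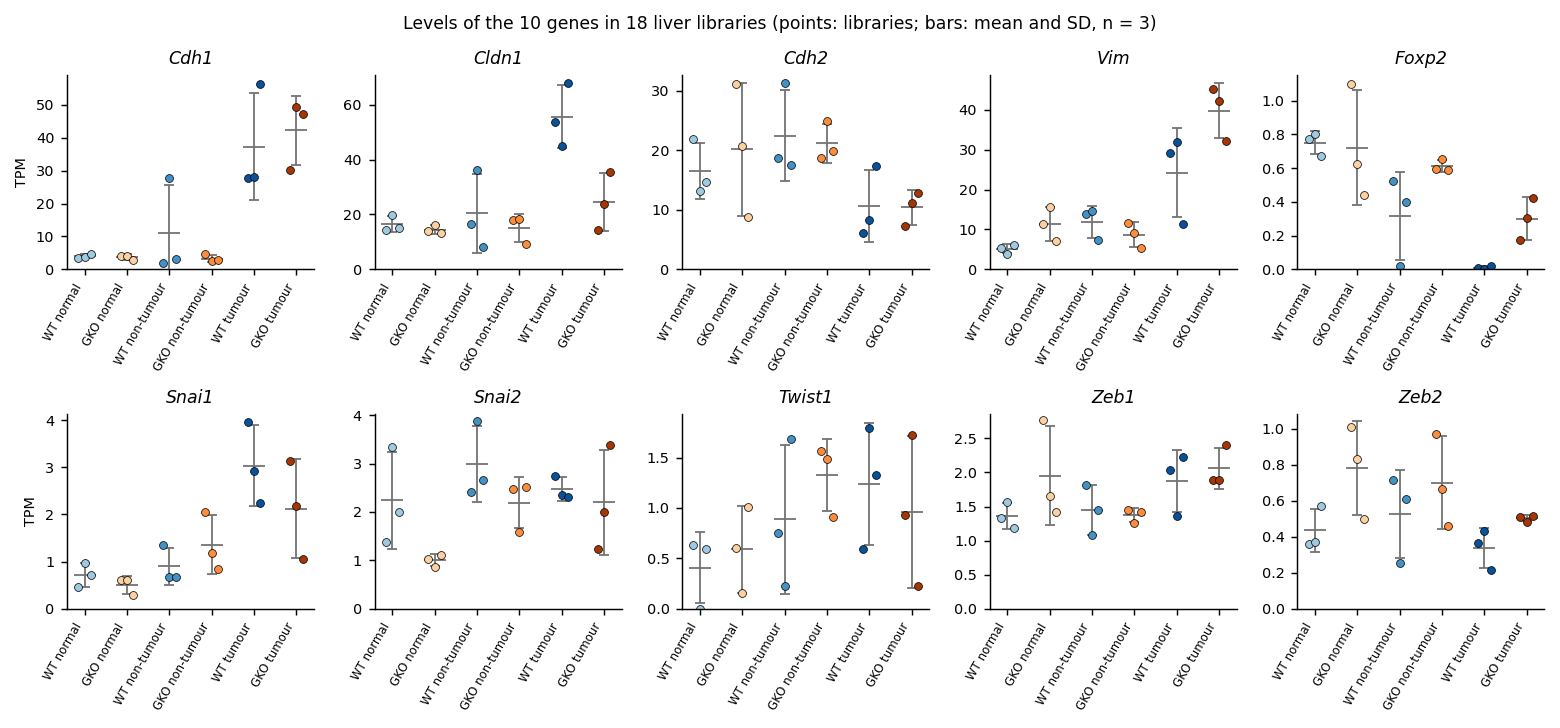
TPM of each of the 10 genes (vertical axes, from 0) in the 6 groups (horizontal axis), with 1 point per library and bars for the mean and SD of 3 libraries. Cdh1 stood at 27.6 TPM or more in all 6 tumours, Cldn1 was highest in WT tumours, Vim was highest in GKO tumours, and Foxp2 was at or near 0 in WT tumours and in 1 WT non-tumour liver.

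Cdh1 was high in all 6 tumours. In WT tumours it stood at 27.6, 28.1 and 56.2 TPM, and in GKO tumours at 30.3, 49.3 and 47.3 TPM. In GKO non-tumour livers it stood at 4.66, 2.46 and 2.74 TPM, and in WT non-tumour livers at 2.05, 27.7 and 3.24 TPM, where the middle value is that of WT non-tumour 2. Normal livers were low, with 3.51, 3.84 and 4.73 TPM in WT and 4.20, 4.15 and 2.77 TPM in GKO. Every tumour was thus above every normal liver and every GKO non-tumour liver, and WT non-tumour 2 alone, among the 12 livers without tumour, lay among the tumours, just above the lowest of them. In the order of group means, GKO tumours, WT tumours, WT non-tumours, WT normal, GKO normal and GKO non-tumours, each neighbouring pair of groups overlapped.

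Fold changes were computed with limma on log2(TPM + 1), a scale that understates changes of genes with low TPM, and p-values were adjusted by the Benjamini-Hochberg method over all genes tested, called at an adjusted p under 0.05. In GKO mice Cdh1 was 3.34 (SE 0.291) higher in tumours than in non-tumour livers, with an adjusted p of 0.00407, from 3.29 ± 1.20 to 42.3 ± 10.5 TPM (mean ± SD, n = 3). It was called, as were 11.7% of all 14092 genes tested there. In WT mice the difference was 2.33 (SE 0.827), with an adjusted p of 0.188, with a level of 37.3 ± 16.4 TPM in tumours and an SD of 14.5 TPM in non-tumour livers. There 4.23% of 14003 genes were called. Without WT non-tumour 2 the WT difference was 3.34, with an adjusted p of 0.0123, so that this library decided the call. Between GKO and WT tumours Cdh1 differed by 0.22 on the log2 scale, with a 95% interval of -0.60 to 1.05 and an adjusted p of 0.868.

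Cdh2 was the more abundant cadherin in livers without tumour and the less abundant one in tumours. WT tumours held 6.07, 8.36 and 17.4 TPM of Cdh2, and GKO tumours held 7.21, 11.1 and 12.9 TPM. WT non-tumour livers held 18.6, 31.3 and 17.5 TPM, and GKO non-tumour livers held 18.7, 24.9 and 19.9 TPM, so that tumours and non-tumour livers of each genotype did not overlap. Normal livers spread widely, from 13.1 to 21.9 TPM in WT and from 8.78 to 31.1 TPM in GKO, and overlapped both. The tumour difference was -0.98 (SE 0.262) in GKO mice, with an adjusted p of 0.0521, and -1.09 (SE 0.407) in WT mice, with an adjusted p of 0.21 (limma). The GKO difference passed the threshold under median centring, with an adjusted p of 0.0277, and the WT difference passed it without WT tumour 3, with -1.48 and an adjusted p of 0.0423. GKO and WT tumours differed by 0.06, with an interval of -0.88 to 0.99 and an adjusted p of 0.975, and the sign of that value changed under quantile normalization.

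The ratio of Cdh1 to Cdh2 TPM brought both genes together in each library. It was 4.55, 3.37 and 3.23 in WT tumours and 4.20, 4.44 and 3.67 in GKO tumours. In 11 of the 12 livers without tumour it lay between 0.0985 and 0.324. The remaining one, WT non-tumour 2, had a ratio of 0.886, between the 2 ranges, because both its Cdh1 and its Cdh2 were high, at 27.7 and 31.3 TPM. The 2 tumour groups overlapped in this ratio. Since these are whole tissues, a different share of cells of one type and a different amount of RNA per cell cannot be told apart.

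**Figure D2:**
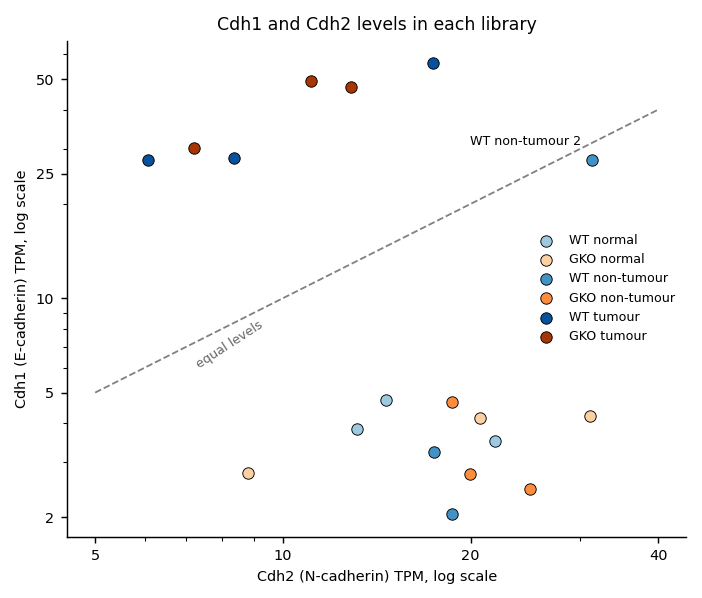
Cdh1 TPM (vertical, log scale) against Cdh2 TPM (horizontal, log scale), with 1 point per library coloured by group and a dashed line of equal levels. All 6 tumours lie above the line and all 12 livers without tumour below it, with WT non-tumour 2 just under it at a ratio of 0.886.

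Cldn1 was highest in WT tumours. They held 53.9, 45.1 and 67.9 TPM, against 14.4, 23.8 and 35.4 TPM in GKO tumours, and the 2 groups did not overlap. WT non-tumour livers held 16.5, 36.2 and 8.32 TPM and GKO non-tumour livers 17.9, 18.3 and 9.22 TPM. Normal livers were close together, at 14.4, 19.9 and 15.1 TPM in WT and 13.9, 16.2 and 13.2 TPM in GKO. WT tumours therefore exceeded every other library, whereas GKO tumours overlapped the non-tumour and normal livers.

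In GKO against WT tumours Cldn1 was lower by -1.21 (SE 0.347, 95% interval -2.03 to -0.39), 24.5 ± 10.5 against 55.6 ± 11.5 TPM (SD, n = 3). The adjusted p was 0.424 (limma), so that it was not called, and over all 17 alternatives the value stayed between -1.51 and -0.89 with adjusted p from 0.214 to 0.987. An exact permutation test of 3 against 3 cannot go below 0.1. In WT mice the tumour difference was 1.61 (SE 0.493, adjusted p = 0.138), and 2.13 with an adjusted p of 0.0307 without WT non-tumour 2. In GKO mice it was 0.63 (SE 0.388), with an adjusted p of 0.292 and overlapping groups. The difference between the genotype effects in tumours and in non-tumour livers was -0.98 (SE 0.676), with an adjusted p of 0.563, so a different response of the genotypes was not shown. It was -1.5 without WT non-tumour 2, and it was called under none of the 23 alternatives.

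Vim was highest in GKO tumours, at 45.2, 42.2 and 32.1 TPM. WT tumours held 29.2, 32.0 and 11.5 TPM, all below the lowest GKO tumour, the nearest by a narrow margin. WT non-tumour livers held 13.8, 14.6 and 7.23 TPM and GKO non-tumour livers 11.6, 9.04 and 5.44 TPM, and WT tumour 3 lay among the former. In normal livers the 2 genotypes also did not overlap, with 5.46, 3.87 and 6.10 TPM in WT and 11.3, 15.5 and 7.21 TPM in GKO.

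In GKO mice Vim was 2.12 (SE 0.298) higher in tumours than in non-tumour livers, with an adjusted p of 0.00936, from 8.68 ± 3.07 to 39.8 ± 6.89 TPM, and was called under all 16 alternatives. In WT mice it was 0.90 (SE 0.445) higher, with an adjusted p of 0.321. GKO tumours were 0.80 (SE 0.398) above WT tumours, with an adjusted p of 0.604, and 0.36 above them without WT tumour 3. The difference of the genotype effects between tumours and non-tumour livers was 1.21 (SE 0.566), with an adjusted p of 0.475. In normal livers GKO was 0.97 (SE 0.284) above WT with an adjusted p of 0.999, and WT non-tumour livers were 1.03 (SE 0.295) above WT normal livers with an adjusted p of 0.134.

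Vimentin is made by stromal, endothelial and blood cells, and markers of such cells are given beside it. Fibroblast and stellate cell markers, 20 genes all above 0 in every library but WT tumour 1, where 2 (Mgp and Ngfr) were at 0, summed to 78.8 to 143 TPM in the WT tumours, and to 163 to 373 TPM in those of GKO mice. WT tumour 3, lowest in Vim among tumours, was also lowest in this sum. They summed to 105 to 319 TPM in WT and 265 to 417 TPM in GKO non-tumour livers, and to 150 to 261 TPM in WT and 328 to 532 TPM in GKO normal livers. Vim and this sum were both higher in GKO than in WT tumours and normal livers, but in GKO non-tumour livers, where the sum had the higher median (335 against 253 TPM), the mean of Vim was lower (8.68 against 11.9 TPM). Between tumour and non-tumour livers Vim was higher where the sum was not. The sum is weighted to abundant genes such as Ecm1, with a mean of 212 TPM in GKO normal livers, and single markers went both ways. In GKO tumours against GKO non-tumour livers 5 of 19 rose, led by Col1a1 and Col3a1, and 2 fell, where 11.7% of all genes were called. The list median there was -0.18 against 0.20 for all genes, with 8 of 19 higher. In WT tumours against WT non-tumour livers 0 of 18 rose and 2 fell, where 4.23% of all genes were called. There the list median was -0.89 against -0.02, with 6 of 18 higher. Endothelial markers, with all 16 genes above 0 in every library, summed to 137 to 191 TPM in tumours of WT mice and 144 to 197 TPM in those of GKO mice. Their sums were 85.3 to 148 TPM in WT and 144 to 167 TPM in GKO non-tumour livers, and 77.0 to 83.1 TPM in WT and 118 to 162 TPM in GKO normal livers. Tumours thus overlapped the non-tumour livers of their genotype in this sum.

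Of the blood cell markers, the 16 of macrophages were above 0 in every library and summed to 295 to 517 TPM in WT and 321 to 680 TPM in GKO tumours. They summed to 339 to 963 TPM in WT and 301 to 1470 TPM in GKO non-tumour livers, and to 176 to 287 TPM in WT and 219 to 499 TPM in GKO normal livers. The 16 lymphocyte markers, of which at most 2 were at 0 in any library, summed to at most 48.6 TPM in WT tumours and to 16.7 to 32.2 TPM in GKO tumours. Their sums were 13.9 to 67.9 TPM in WT and 34.3 to 75.7 TPM in GKO non-tumour livers, so that in GKO mice they were lower in tumours, where Vim was higher. Mesothelial markers, 7 genes of the lining of the liver surface that include Msln, summed to 8.85 to 15.7 TPM in GKO and 1.23 to 1.65 TPM in WT normal livers, without overlap, with 0 to 1 of them at 0 in GKO and 2 to 4 in WT. All 4 of them above the filter were higher in GKO normal livers, with a median of 1.15 against 0.06 for all genes. Msln was at 2.37 (SE 0.287, adjusted p = 0.313). In WT normal livers the means of Msln, Gpm6a and Upk3b were 0.268, 0.463 and 0.0695 TPM, under the filter of 0.5 TPM. They passed it only through their GKO levels, so their direction was set by the filter and shows nothing by itself. Krt19, 1 of these 4 at 1.39, is also a marker of cholangiocytes, the bile duct cells. Cholangiocyte markers summed to 95.2 to 105 TPM in GKO and 48.6 to 61.0 TPM in WT normal livers, also without overlap. In tumours the sums of mesothelial markers were 0.106 to 7.57 TPM in WT and 1.66 to 8.45 TPM in GKO. The part of these cells in the Vim differences was not tested.

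**Figure D3:**
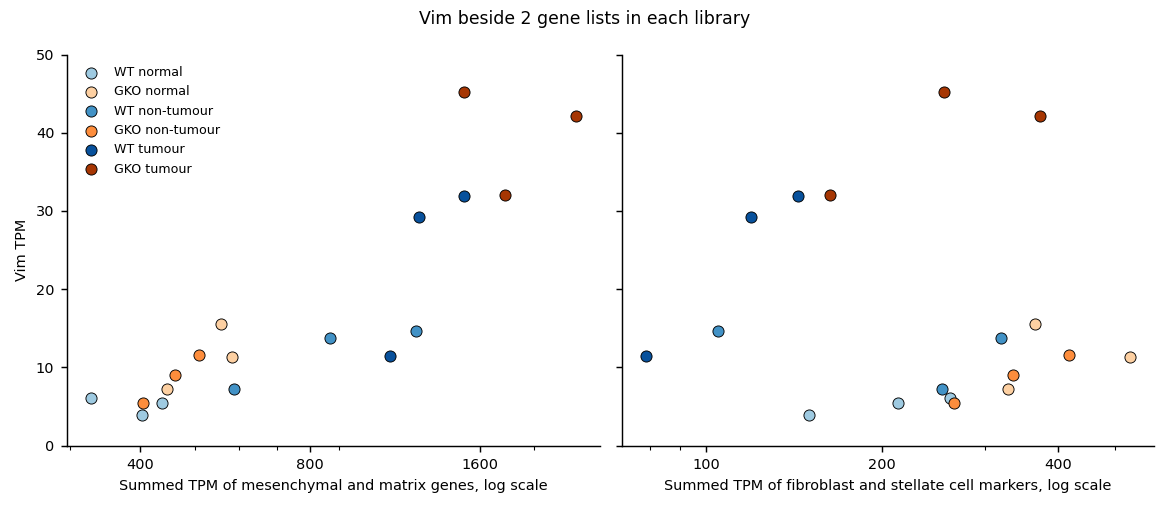
Vim TPM (vertical) against the summed TPM of mesenchymal and matrix genes (left) and of fibroblast and stellate cell markers (right, both log scales), with 1 point per library coloured by group. The 3 GKO tumours have the highest Vim, and their fibroblast sums of 163 to 373 TPM lie within those of livers without tumour.

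Of the transcription factors among the 10 genes above the filter there, Snai1 had the largest difference between WT tumours and non-tumour livers. WT tumours held 3.96, 2.93 and 2.24 TPM (53, 39 and 32 reads), and GKO tumours held 3.14, 2.19 and 1.05 TPM (47, 29 and 14 reads). WT non-tumour livers held 1.35, 0.680 and 0.663 TPM, all below the WT tumours. GKO non-tumour livers held 2.05, 1.18 and 0.842 TPM and overlapped the GKO tumours. In WT mice the tumour difference was 1.09 (SE 0.251), with an adjusted p of 0.0671, and it passed the threshold without WT tumour 3, at 1.24 with an adjusted p of 0.0379. In GKO mice it was 0.38 (SE 0.316, adjusted p = 0.427). GKO and WT tumours differed by -0.41, with an interval of -1.15 to 0.34 and an adjusted p of 0.727, and the interaction of genotype and tissue was -0.71 (SE 0.418, adjusted p = 0.52).

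Snai2 overlapped between the tumour groups. WT tumours held 2.75, 2.35 and 2.30 TPM, and the GKO tumours lay on either side of them, at 1.23, 2.00 and 3.38 TPM. Its tumour differences were -0.18 in WT (adjusted p = 0.686) and -0.03 in GKO (adjusted p = 0.946), and GKO and WT tumours differed by -0.17 with an interval of -0.83 to 0.49. GKO normal livers were the lowest group, at 1.03, 0.859 and 1.10 TPM, below WT normal livers at 1.38, 3.34 and 1.99 TPM and below GKO non-tumour livers at 2.46, 1.58 and 2.52 TPM. These differences were -0.65 (SE 0.252, adjusted p = 0.999) between GKO and WT normal livers and 0.66 (SE 0.212, adjusted p = 0.856) between GKO non-tumour and normal livers. Snai1 also was higher in GKO non-tumour than in GKO normal livers without overlap, 0.842 to 2.05 against 0.290 to 0.612 TPM, by 0.63 (SE 0.253, adjusted p = 0.952).

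Twist1 was too low to be ranked between groups. It ranged from 0 to 24 reads, and its level was 0.594, 1.79 and 1.32 TPM in WT tumours. GKO tumours held 0.931, 1.73 and 0.224 TPM. Its tumour differences were 0.28 in WT and -0.31 in GKO, with intervals of -0.56 to 1.13 and -1.04 to 0.43. Between GKO and WT tumours it differed by -0.23, with an interval of -1.07 to 0.62.

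Zeb1 varied little between groups. WT tumours held 2.04, 1.36 and 2.23 TPM, GKO tumours held 1.89, 1.89 and 2.41 TPM, and group means ran from 1.36 TPM in WT normal livers to 2.06 TPM in GKO tumours. In GKO mice tumours lay above non-tumour livers (1.44, 1.26 and 1.43 TPM) without overlap, by 0.36 (SE 0.181, adjusted p = 0.209). In WT mice the difference was 0.23 (adjusted p = 0.628), and between GKO and WT tumours it was 0.10, with an interval of -0.41 to 0.61.

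Zeb2, the one gene of the 10 with a miR-181 seed match in its 3′ UTR, was below the filter of a mean of 0.5 TPM in the comparisons of WT tumours. GKO tumours held 0.510, 0.484 and 0.513 TPM (94, 79 and 84 reads) and WT tumours 0.364, 0.433 and 0.216 TPM (60, 71 and 38 reads), without overlap. With no filter the difference was 0.17 (SE 0.113), with an adjusted p of 0.756, and voom on the recovered reads gave 0.60 (SE 0.388, adjusted p = 0.779). In normal livers GKO held 1.01, 0.834 and 0.501 TPM and WT 0.362, 0.372 and 0.572 TPM, which overlapped, as did the non-tumour livers. In GKO mice tumours and non-tumour livers differed by -0.17 (SE 0.195, adjusted p = 0.578). Zeb2 shares 653 exonic bases, 3.27% of its own, with the antisense gene Zeb2os, and Zeb1 shares 198 (1.93%) with Gm10125. Whether the counting used strand is not given in the sources used here, so the reads of those bases cannot be assigned.

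Foxp2 was at or near 0 in WT tumours and above it in GKO tumours, at a level of few reads. WT tumours held 1, 0 and 3 reads (0.0074, 0 and 0.0208 TPM), at or under a floor of 3 reads per library. GKO tumours held 26, 41 and 57 reads (0.172, 0.307 and 0.425 TPM). WT non-tumour 2 also was at 3 reads (0.0225 TPM), whereas the other WT non-tumour livers held 70 and 55 reads (0.521 and 0.402 TPM). GKO non-tumour livers held 76, 84 and 78 reads, and normal livers 61 to 147. Foxp2 was therefore at the floor in 4 libraries, the 3 WT tumours and WT non-tumour 2, and well above it in the other 14.

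Scaled to the reads of each library, Foxp2 in GKO tumours was 29.8 times that in WT tumours (124 against 4 reads, exact 95% interval 11.3 to 111). WT non-tumour livers had 34.2 times the WT tumours (128 against 4 reads, interval 13.0 to 127), and 51.0 times without WT non-tumour 2 (interval 19.4 to 190). GKO non-tumour livers had 2.46 times the GKO tumours (238 against 124 reads, interval 1.97 to 3.08). These intervals cover counting error only and not the spread between samples. Foxp2 was below the filter in these comparisons. With no filter, voom on the recovered reads gave a difference of 4.80 (SE 0.767) between GKO and WT tumours with an adjusted p of 0.142, and limma on log2(TPM + 1) gave 0.36 with an adjusted p of 0.574. For WT tumours against WT non-tumour livers voom gave -4.20 (SE 1.37, adjusted p = 0.169), and for GKO tumours against GKO non-tumour livers -1.37 (SE 0.397, adjusted p = 0.0554). In WT non-tumour against WT normal livers, where it passed the filter, the difference was -0.43 (SE 0.229, adjusted p = 0.273).

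**Figure D4:**
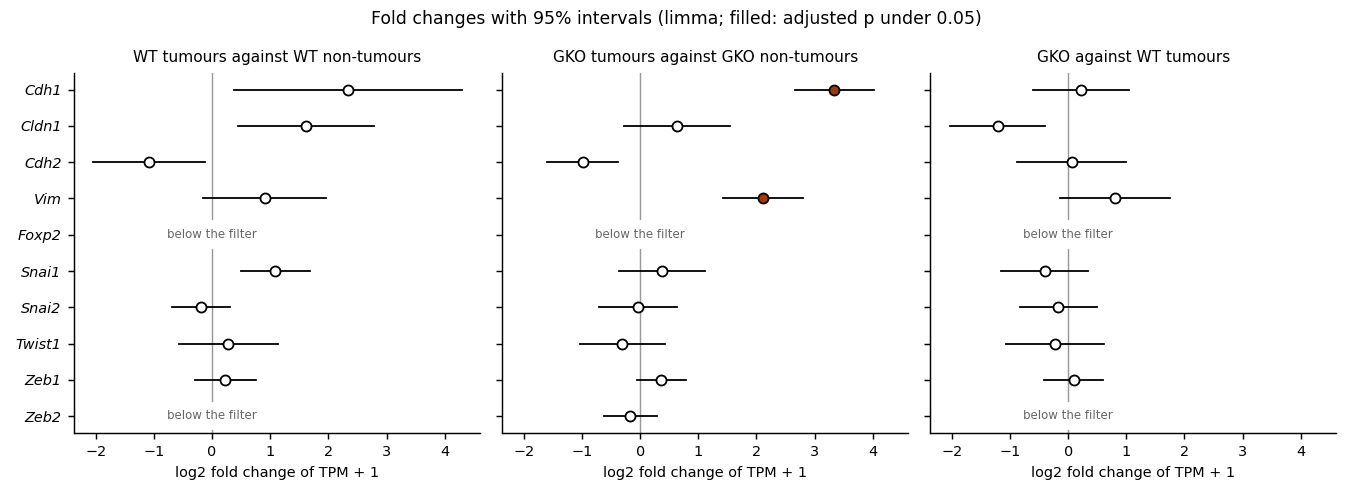
Log2 fold change of TPM + 1 (horizontal) with its 95% interval for each gene, in WT tumours against WT non-tumour livers, GKO tumours against GKO non-tumour livers, and GKO against WT tumours, with 3 libraries per group. Filled points passed an adjusted p of 0.05, which were Cdh1 at 3.34 and Vim at 2.12 in GKO tumours against GKO non-tumour livers.

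Counted over the 10 genes, few comparisons gave a call. Between GKO and WT tumours 0 of the 8 genes above the filter were called, where 0.0215% of all genes were (3 genes), and Cldn1 alone had an unadjusted p under 0.05, as did 8.87% of all genes. Without WT tumour 3, 147 of 14031 genes were called and again 0 of the 8. The groups did not overlap for 2 of the 8, Vim and Cldn1, against 14.7% of all genes. Between WT tumours and non-tumour livers 0 of 8 were called, against 4.23% of all genes, 4 had an unadjusted p under 0.05 (Cdh1, Cdh2, Snai1 and Cldn1), against 19.9%, and the groups did not overlap for 3 of 8, against 24.8% of all genes. Between GKO tumours and non-tumour livers 2 of 9 were called, Cdh1 and Vim, against 11.7% of all genes, and the groups did not overlap for 4 of 9, against 38.3% of all genes. With voom on the recovered reads the counts of calls were 0, 0 and 3, the third gene being Cdh2, where 0%, 3.96% and 12.7% of all genes were called. The comparisons within the tumour groups share samples, so their values are set side by side and are not independent.

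The remaining comparisons called none of the 10 genes with limma or with voom. Between GKO and WT non-tumour livers 0 of 9 were called, with 0% of all genes, and 0 had an unadjusted p under 0.05, against 5.8% of all genes. The Cdh1 difference there, -0.78 (SE 0.798), turned to 0.22 without WT non-tumour 2, and that of Vim was -0.41 (SE 0.35). None of the 9 was without overlap, against 13.2% of all genes. Foxp2, below the filter there, did not overlap, at 0.592 to 0.656 TPM in GKO and 0.0225 to 0.521 TPM in WT. With no filter, voom gave 1.97 for it (SE 0.838, adjusted p = 0.705). Between GKO and WT normal livers 0 of 9 were called, with 0% of all genes, and 2 had an unadjusted p under 0.05 and did not overlap, Vim and Snai2, against 3.96% of all genes by p and 7.95% by overlap. Between WT non-tumour and normal livers 0 of 9 were called, with 0.00744% of all genes, 1 had an unadjusted p under 0.05 (Vim, against 24.4%), and 2 did not overlap (Vim and Foxp2), against 33.9%. Between GKO non-tumour and normal livers 0 of 10 were called, with 0% of all genes, and Snai1 and Snai2 had an unadjusted p under 0.05 and did not overlap, against 5.2% by p and 8.73% by overlap. For the genotype effect in tumours minus that in non-tumour livers 0 of 9 were called, with 0.0142% of all genes, and 0 had an unadjusted p under 0.05, against 10.5%. The Cdh1 value there was 1.01 (SE 0.954, adjusted p = 0.671). It was 0.0056 without WT non-tumour 2, and it was called under none of the 23 alternatives.

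Other genes of the same pathways were read from lists in GKO tumours against GKO non-tumour livers. Of 35 mesenchymal and matrix genes above the filter, 18 rose and none fell, where 11.7% of all genes were called, with a median of 1.12 against 0.20 for all genes. Without GKO non-tumour 3 the count was 6 of 35, and 1.62% of all genes were called (229 genes in place of 1652). Without GKO non-tumour 2 it was 11 (4.39%) and without GKO tumour 3 also 11 (5.34%), and the median stayed between 1.03 and 1.26 whichever sample was left out. The filter took the mean over both groups, so a gene low in non-tumour livers passed it only if high in tumours. Between GKO and WT non-tumour livers 30 genes of this list were above the filter. The counts of rises may thus rest in part on the filter. Col1a1, a chain of fibrillar collagen, rose by 4.33 (SE 0.38, adjusted p = 0.00407), from 1.03 ± 0.53 to 41.7 ± 19.5 TPM. Acta2, smooth muscle actin, rose by 3.49, Col3a1, a second fibrillar collagen, by 3.44, and Sparc, a matrix glycoprotein, by 2.93. Under median centring, which moved the median of all genes from 0.20 to -0.04 and the share of higher genes among calls from 66.1% to 44.0%, 12 of these 35 rose and none fell. Of 35 epithelial junction and keratin genes 5 rose and none fell, near the 11.7% of all genes called, with a median of 0.66 against 0.20. They included Ctnnb1, the β-catenin that binds cadherins, by 1.95 (SE 0.379, adjusted p = 0.022), F11r, a tight junction adhesion molecule, by 1.81, Dsg2, a desmosomal cadherin, by 1.01, and Tjp1, the junction scaffold ZO-1, by 0.98. Of the 35 epithelial genes 1, F11r, rose without GKO non-tumour 3 or without GKO non-tumour 2.

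Of 22 other EMT transcription factors and co-factors, 4 rose in GKO tumours and none fell, Sox4 by 2.43, Snai3 by 1.67, the histone demethylase Kdm1a by 0.95 and Ets1 by 0.76. Of 5 other cadherins 1 rose, the endothelial Cdh5 (1.52), of 9 other claudins 1 rose, the endothelial Cldn5 (1.15), and of 2 other Foxp genes 1 rose, Foxp4 (1.01). Without GKO non-tumour 3 Snai3 was the one call left among these 4 lists. Of 16 endothelial markers 4 were called and higher (Pecam1, Emcn, Cdh5 and Tie1), where 11.7% of all genes were called. Cdh5 is on both this list and that of the cadherins. Of the 16 markers 10 were higher, with a median of 0.18 against 0.20 for all genes, so the list as a whole did not stand out. The part of endothelial cells in the rises of Cdh5 and Cldn5 was not tested. Of the other marker lists, 5 of 19 fibroblast and stellate cell markers rose, led by the collagens, and 2 fell, 1 of 16 macrophage markers rose and 2 fell, 2 of 12 lymphocyte markers fell, 3 of 11 hepatocyte markers rose, and 0 of 9 cholangiocyte and 0 of 4 mesothelial markers were called.

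In WT tumours against WT non-tumour livers 0 of 30 mesenchymal and matrix genes were called, with a median of 0.53 against -0.02 for all genes. Without WT non-tumour 2, 4 of 30 rose, named in order of size Col1a1, Sparc, Tpm4 and Tpm1, and 1 fell, Tgfbi, where 6% of all genes were called. Of 35 epithelial junction and keratin genes 1 rose, where 4.23% of all genes were called, so the list as a whole did not stand out. It was the claudin Cldn14, by 2.51 (SE 0.435, adjusted p = 0.0279), from 7.97 ± 4.25 to 45.8 ± 10.1 TPM, and it lost the call without any one of WT non-tumours 1 and 3 and WT tumours 1 and 2, when 1.17% to 1.53% of all genes were called. It was at 21.7 ± 13.1 TPM in GKO tumours, a difference of -1.18 that was not called (adjusted p = 0.511). Of 4 other cadherins the protocadherin-related Cdhr2, of the brush border, rose by 4.38 (SE 0.448, adjusted p = 0.00431), from 0.0391 ± 0.0338 to 23.5 ± 12.4 TPM. Cdhr2 passed the filter of 0.5 TPM only through WT tumours, so its direction there was set by the filter. It stood at 1.11 ± 0.977 TPM in GKO tumours (difference -3.48, adjusted p = 0.241). Of 8 other claudins 2 rose, Cldn14 and the endothelial Cldn5, by 1.35 (SE 0.283, adjusted p = 0.0499), which lost the call with voom and without any one sample except WT tumour 3. Beside it, 14 of 15 endothelial markers were higher in WT tumours, none called, with a median of 0.53, whereas fibroblast and stellate cell markers had a median of -0.89, with 2 of 18 called and lower (Gsn and Rgs5). The part of these cells was not tested. Of 2 other Foxp genes Foxp4 rose by 1.25, and lost the call without the same 4 samples as Cldn14. None of 21 other EMT transcription factors was called.

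Between GKO and WT tumours no gene of these lists was called. The median of 34 mesenchymal and matrix genes was 0.42 against 0.09 for all genes, that of 35 epithelial genes was 0.06, and that of 18 fibroblast and stellate cell markers was 0.99. The sum of the mesenchymal and matrix genes was 1501 to 2368 TPM in GKO tumours and 1109 to 1501 TPM in WT tumours. It held Spp1, also a cholangiocyte marker, at 501 ± 451 TPM in GKO and 28.7 ± 16.2 TPM in WT tumours.

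**Figure D5:**
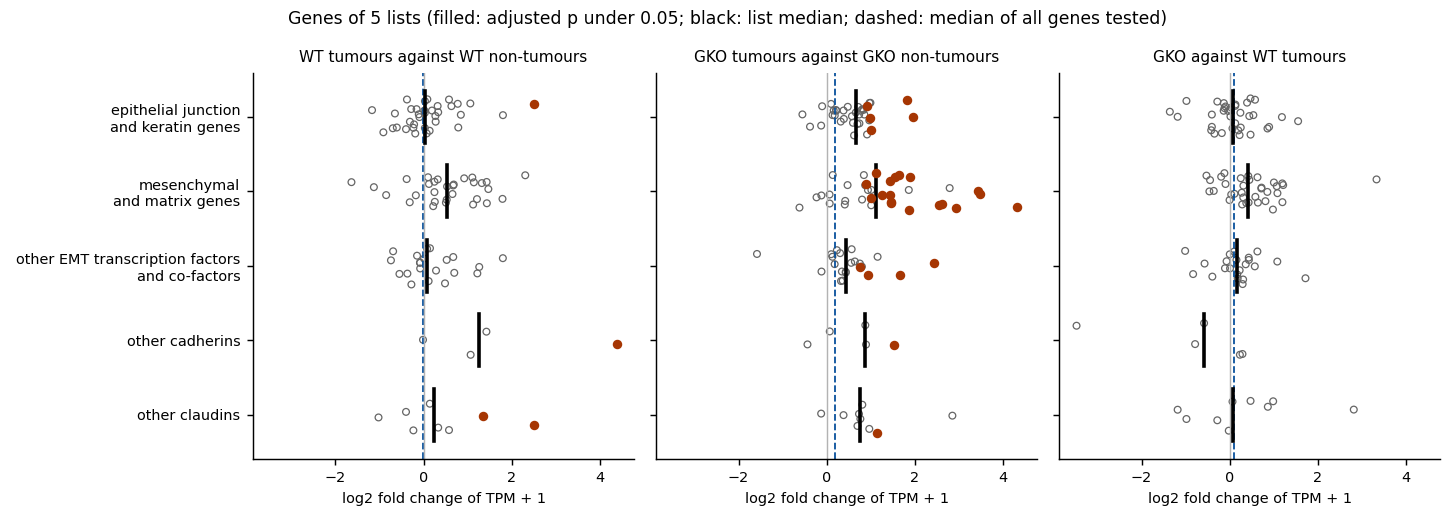
Log2 fold change of TPM + 1 (horizontal) of the genes of 5 lists, without the 10 genes, in WT tumours against WT non-tumour livers, GKO tumours against GKO non-tumour livers, and GKO against WT tumours. Filled points passed an adjusted p of 0.05, black bars are list medians and dashed lines the median of all genes tested. In GKO tumours 18 of 35 mesenchymal and matrix genes are filled, in WT tumours 0 of 30, and between tumours none.

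The genes whose levels were most like those of 8 members were found by Pearson's r of log2(TPM + 1) over the 18 libraries, among 13914 genes. For Cdh1 these were F11r (r = 0.961), Utp14b (0.961) and Tmem71 (0.957). For Vim they were the collagen chaperone Serpinh1 (0.972), Fstl1 (0.970) and Col3a1 (0.96). For Cldn1 they were Dhrs9 (0.905), the keratin Krt20 (0.894) and Fam84b (0.888). For Cdh2 they were AC132455.2 (0.919), AC079680.1 (0.910) and Gm17634 (0.903). For Snai1 they were Twf2 (0.908), 4933431E20Rik (0.904) and the LIM kinase Limk2 (0.902). For Snai2 they were Sdhaf4 (0.901), Orc5 (0.871) and Tmem260 (0.840), for Zeb1 Plxnb2 (0.813), Kdm5b (0.806) and Foxq1 (0.802), and for Zeb2 Tnxb (0.917), Olfm1 (0.887) and Rtn1 (0.870). The 18 libraries fall into 6 groups, and tumours and livers without tumour lie apart for several of these genes, so the values describe likeness over these libraries only. Foxp2, with a mean of 0.452 TPM, was below the level of 0.5 TPM set for this search.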

How the data were processed

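The 10 genes and all gene lists were chosen with earlier results of these data known. Per the submitters' processing notes, STAR 2.7.3a, featureCounts 2.0.0 and mm10 were used. The authors deposited 1 table of TPM for 54838 genes. The conversion to TPM, the annotation and the use of strand are not given in the sources used here. There were 0 columns without a sample. TPM is a share of the library, so a rise of abundant genes lowers the others.

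Reads were recovered from TPM with exonic lengths of GENCODE mouse release 21: 97.95% to 98.67% of the values of up to 30 reads were whole within 0.02. For each comparison, log2(TPM + 1) of its 6 samples (12 for the interaction) was fitted by limma 3.58.1 under R 4.3.3 with lmFit and trended eBayes. Genes averaging under 0.5 TPM in those samples were left out, and p-values were adjusted by Benjamini-Hochberg over the rest. Intervals are 95%. Named list genes are at most 4 called genes of largest fold per list and comparison; Cldn14, Cdhr2 and Spp1 between tumours were named after their values were seen. Symbols Cldn25, Ccn1, Ccn2 and Tf found no match. The genes most like Twist1 are not reported here. The procedure was tested on simulated data. Sums and figures used Python 3.11.15, numpy 2.4.6, pandas 2.3.3 and matplotlib 3.10.9.

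Replicate numbers in the labels were not said to mark a shared mouse or batch. Deviations of same-numbered samples from their group means correlated at 0.101, 0.12 and 0.197 between GKO and WT tumours, all above 0.1, and not all above it in the other comparisons. Differently numbered samples reached such values too. WT tumour 2 and GKO tumour 1 were at 0.114, and WT non-tumour 1 and GKO non-tumour 2 at 0.291. Alternatives tried were: a replicate block, voom on recovered reads, quantile normalization, median centring, 1 fit of all 18 samples, untrended eBayes, a pseudocount of 0.1, a filter at 5 TPM or none, each sample left out, and WT tumours 1 and 2 averaged. Voom without a filter was added after seeing the data, for Foxp2 and Zeb2.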

Additional observations from a re-analysis of the deposited data

How the results depend on the processing

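Among the 10 genes, the calls of Cdh1 and Vim in GKO tumours against GKO non-tumour livers held under all 16 alternatives, with log2 fold changes from 3.11 to 3.67 and from 1.83 to 2.33. In WT tumours against WT non-tumour livers the count of called members rose from 0 to 3 with all 18 samples in one fit (Cdh1, Snai1 and Cldn1) and ranged from 0 to 2 when 1 sample was left out: Cdh1 and Cldn1 without WT non-tumour 2, Cdh2 and Snai1 without WT tumour 3. The cause was not tested. With the replicate number as a block, which pairs same-numbered samples, 0 members were called between GKO and WT tumours, 2 in GKO tumours against GKO non-tumour livers and 0 in the other comparisons, so the pairing changed no call among the members; over all genes it moved the calls from 592 to 361 in WT and from 3 to 0 between tumours. Leaving out 1 sample moved the calls over all genes from 163 to 1363 in WT, from 229 to 1567 in GKO and from 0 to 147 between tumours, where 1 fit of all 18 samples gave 78. Cdh2 in GKO tumours against GKO non-tumour livers passed the threshold under 5 alternatives, including voom on recovered reads (-1.30, adjusted p = 0.0245) and a mean of at least 5 TPM (-0.98, adjusted p = 0.0403). Signs changed only for values that were not called: Cdh2 between tumours was -0.00488 under quantile normalization and -0.14 with WT tumours 1 and 2 averaged, and with 1 sample left out the values between tumours ran from -0.24 to 0.45 for Cdh2, -0.0367 to 0.19 for Zeb1, -0.42 to 0.0651 for Snai2 and -0.50 to 0.0746 for Twist1. In the same way Snai2 in GKO tumours against GKO non-tumour livers ran from -0.29 to 0.20, and Cdh1 between non-tumour livers, at -0.78 with all samples, from -1.40 to 0.22, where WT non-tumour 2 turned the sign. Median centring lowered the median of all genes by more than 0.1 in GKO tumours against GKO non-tumour livers (0.20 to -0.04), in non-tumour against normal livers of WT (0.32 to -0.05) and GKO mice (0.08 to -0.03) and in the interaction (0.23 to 0.0085), and raised it between GKO and WT non-tumour livers (-0.15 to 0.02). Depth limited Foxp2, Twist1, Snai1 and Snai2, which had 57 reads or fewer in any tumour.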

Other observations

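Markers of cholangiocytes, the bile duct cells that carry Epcam and Krt19, spread widely in GKO tumours. Their sum was 81.6 to 1040 TPM there, with a median of 570 TPM, against 76.4 to 162 TPM in WT tumours. Most of the GKO sum was Spp1 (501 ± 451 TPM), which is also on the list of mesenchymal and matrix genes. Epcam was 1.55 (SE 0.408) higher in GKO than in WT tumours, at 3.57 ± 2.34 against 0.459 ± 0.357 TPM, and Krt19 was 1.18 (SE 0.473) higher, with adjusted p of 0.40 and 0.544 (limma), so that neither was called. Of the 9 markers above the filter 6 were higher and 3 lower in GKO tumours, the latter being Tspan8 (-1.53), Sox9 (-1.01) and Anxa13 (-0.26), and Tspan8 stood at 54.8 ± 52.0 TPM in WT and 32.1 ± 31.8 TPM in GKO tumours. In each WT tumour 3 of the 12 markers were at 0, a different set in each.

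The sum of the epithelial junction and keratin genes was 6469 TPM in WT non-tumour 2, against 2454 and 2835 TPM in the other WT non-tumour livers and 4025 to 4602 TPM in WT tumours. The keratins of hepatocytes, Krt8 and Krt18, stood at 866 ± 914 and 777 ± 695 TPM in WT non-tumour livers (SD, n = 3), and at 500 ± 75.3 and 1065 ± 279 TPM in WT tumours.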
